A study of Mus musculus with 9 samples.

Results

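The Hox genes of clusters a, b, c and d were followed through the counts of 9 HC11 cultures. Members were the rows whose symbol was Hox, a cluster letter and a paralogue number, which gave 39 of the 55228 genes in the table: 11 in cluster a, 10 in cluster b, 9 in cluster c and 9 in cluster d. HC11 is a line of mammary epithelial cells from a BALB/c mouse. The cultures were undifferentiated and were 3 of the parental cells (*WT*) and 3 each of *KD1* and *KD2*, lines that had been targeted at *Vangl2* with CRISPR/Cas9, a different guide for each line and a repair template that carries stop codons. The labels name these lines Vangl2 knockouts 1 and 2. All 3 groups were grown in RPMI medium with serum, insulin and epidermal growth factor. Each targeted line was raised from single colonies and the parental cells were not cloned, so that what cloning and what the loss of *Vangl2* did cannot be told apart here. A library of cells cloned without a *Vangl2* guide was not analysed here. Nothing in the labels says that the 3 replicates of a line were separate thaws or passages, and the p-values measure the spread between these cultures alone.

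Hox genes encode homeodomain transcription factors that give cells along the body axis their positional identity. They lie in clusters in which genes at the 3′ end (low paralogue numbers) are switched on earlier and further forward in the embryo than those at the 5′ end. Polycomb complexes hold silent members in repressed chromatin, MLL methyltransferases keep active members on, retinoic acid opens the 3′ end, and the PBX and MEIS proteins of the TALE family bind DNA with Hox proteins. In the mammary gland, Hox genes take part in the forming of the gland and its ducts, and *Hoxa9*, *Hoxb9* and *Hoxd9* act together in its growth for lactation.

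The members the comparisons turned on included *Hoxc9*, which is a paralogue of the most abundant Hox gene, *Hoxb9*. The homeobox, the 180 coding bases that encode the DNA-binding domain, is shown for both, because reads from such alike genes could be counted on the wrong one. Each is written 5′ to 3′ along the gene, read from the GENCODE vM21 transcripts of GRCm38, with capitals at the bases that differ from *Hoxb9*. That of *Hoxb9* is at chr11:96274659-96274838 (plus strand) and that of *Hoxc9* at chr15:102983930-102984109 (plus strand).
Hoxb9: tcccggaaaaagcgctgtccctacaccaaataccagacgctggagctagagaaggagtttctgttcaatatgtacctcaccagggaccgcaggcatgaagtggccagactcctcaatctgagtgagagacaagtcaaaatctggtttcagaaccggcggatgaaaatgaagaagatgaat
Hoxc9: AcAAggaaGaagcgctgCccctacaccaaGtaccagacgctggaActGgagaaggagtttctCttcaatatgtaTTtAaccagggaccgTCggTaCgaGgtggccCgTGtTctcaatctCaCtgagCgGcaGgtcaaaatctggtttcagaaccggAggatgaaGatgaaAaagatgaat
*Hoxc9* differed from *Hoxb9* at 29 of the 180 bases, an identity of 83.9%, and the longest run of bases they shared was 24. Of the windows of 50 bases in the transcripts of *Hoxc9*, 1.44% also occurred in other genes, and none occurred in *Hoxa9*. For *Hoxb9* the share in other genes was 0.233%. Neither *Hoxb9* nor *Hoxc9* was among the genes that shared the most windows with the other.

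Between 19231428 and 28360592 reads per culture were counted on genes. *WT* replicate 1 and *KD2* replicate 3 stood apart from the other cultures of their lines, with a chi-square per degree of freedom over genes of 10.7 to 13.1 and 17.4 to 22.1 against them, where the 3 *KD1* pairs were at 1.37 to 1.81. *Vangl2*, the targeted gene, had 3.38, 3.96 and 4.2 CPM (counts relative to the TMM-adjusted library size) in *WT*, 2.77, 1.89 and 2.78 in *KD1* and 3.64, 3.93 and 4.43 in *KD2*. Its transcript fell in *KD1* by 0.63 on the log2 scale (SE 0.171, adjusted p = 0.0058, quasi-likelihood test of edgeR, p-values adjusted by Benjamini-Hochberg over 15253 genes), whereas in *KD2* its cultures overlapped those of *WT* (log2 fold change 0.05, adjusted p = 0.81). An edited gene can keep its transcript, so these values check the labels only in part. By immunoblot, the paper reports almost no VANGL2 protein in *KD1* and strongly reduced protein in *KD2*. Of the epithelial markers, 9 of 10 had counts that could be tested (*Krt5*, *Krt14*, *Epcam* and *Cdh1* among them), and *Krt19*, a luminal keratin, had no count in any culture. The markers of immune, endothelial and adipocyte cells, summed by cell type, reached at most 8.61 CPM in any culture, with *Adgre1*, *Tyrobp* and *Emcn* at 0 throughout.

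Of the 39 Hox genes, 11 had no count in any culture, 9 had too few counts to pass the filter and 19 were tested. The 19 held 9 of the 11 genes of cluster a, 8 of the 10 of cluster b, 2 of the 9 of cluster c and none of cluster d. More than 3 counts in every culture were seen for 21 members in *WT*, 17 in *KD1* and 18 in *KD2*. Silent in all 9 cultures were *Hoxa11*, *Hoxa13*, *Hoxb1*, *Hoxc12*, *Hoxd1* and *Hoxd8* to *Hoxd13*. A floor of 3 counts corresponded to 0.0999 to 0.154 CPM, and since the reads carried no molecular identifiers it covers counting error only. The 9 members below the filter were *Hoxb13*, *Hoxc4*, *Hoxc6*, *Hoxc8*, *Hoxc10*, *Hoxc11*, *Hoxc13*, *Hoxd3* and *Hoxd4*, none of which exceeded 12 counts in a culture.

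Compared per length of exon (RPKM, computed here from CPM and the length of the annotated exons), the parental cells were dominated by a single gene. *Hoxb9* was at 29.2 ± 0.823 RPKM (SD, n = 3) and made up 47.8% ± 1.10 of the summed Hox RPKM. *Hoxb6* followed at 4.19 ± 0.298, *Hoxb7* at 3.73 ± 0.275, *Hoxa5* at 3.07 ± 0.108 and *Hoxa4* at 2.92 ± 0.212 RPKM. The cultures of *Hoxb6* and *Hoxb7* overlapped, as did those of each neighbour from *Hoxa5* down through *Hoxa4*, *Hoxa6* (2.85) and *Hoxb4* (2.82), so that their order within those stretches is not resolved. *Hoxb9* stood apart from *Hoxb6*, and *Hoxb7* from *Hoxa5*, in every *WT* culture. *Hoxb2*, *Hoxa10*, *Hoxb5* and *Hoxb8* were at 1.00 to 1.53 RPKM, *Hoxa2*, *Hoxb3*, *Hoxc9* and *Hoxa3* at 0.752 to 0.979, and *Hoxa7*, *Hoxc5* and *Hoxa9* at 0.0936 to 0.314. Cluster b thus held 73.2% ± 1.50 of the summed Hox RPKM in *WT*, cluster a 24.6% ± 1.05 and cluster c 2.20% ± 0.447, and cluster d had no count.

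**Figure D1:**
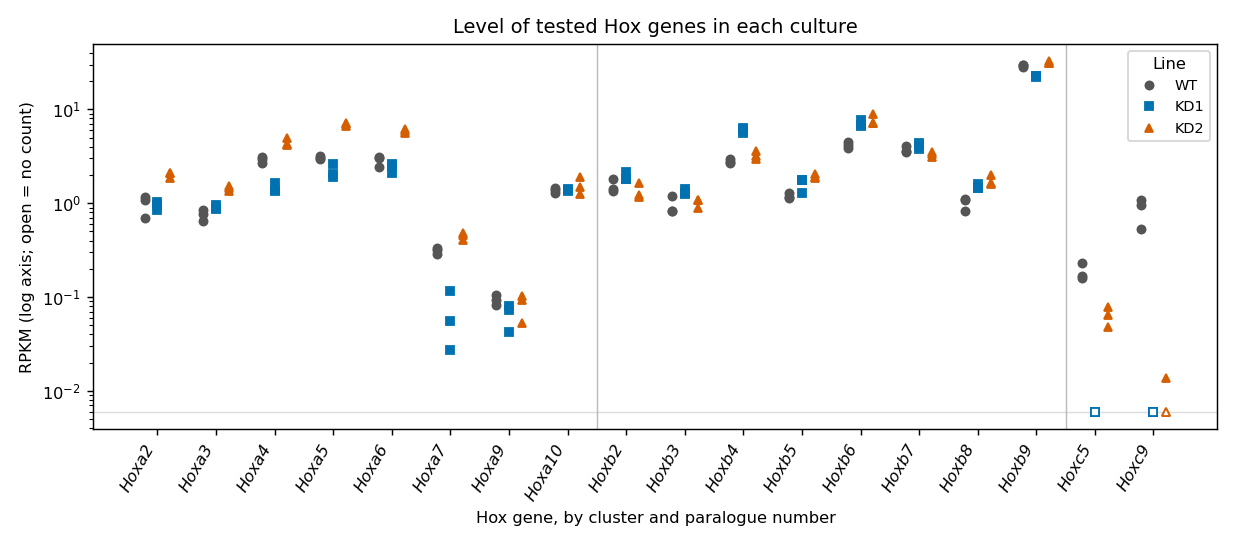
RPKM of tested Hox genes (log axis), by cluster and paralogue number along the horizontal axis, in 3 cultures each of *WT* (circles), *KD1* (squares) and *KD2* (triangles). Open symbols on the grey line stand for cultures with no count. *Hoxb9* lies above all other members in every culture, and *Hoxc9* is at or near no count in both targeted lines.

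The lines differed in how this program was shared out. The summed level of all members was 145.1 to 148.1 CPM in *WT* cultures, 141.3 to 147.8 in *KD1* and 186.2 to 189.7 in *KD2*. The cultures of *KD2* were higher than all others, and those of *KD1* and *WT* overlapped. Cluster a summed to 31.1 ± 1.49 CPM in *WT*, 29.2 ± 1.52 in *KD1* and 58.6 ± 2.18 in *KD2* (SD, n = 3). Cluster b moved less, at 112 ± 2.76, 114 ± 2.17 and 129 ± 4.08 CPM. Cluster c went from 3.40 ± 0.645 CPM in *WT* to 0.326 ± 0.144 in *KD1* and 0.718 ± 0.103 in *KD2*. As a share of summed Hox RPKM, cluster a was 22.2% in *KD1* and 35.8% in *KD2*, and *Hoxb9* was 38.0% ± 1.24 in *KD1* and 38.7% ± 0.895 in *KD2*.

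In cluster c, both tested members were at their highest in *WT*. They passed the filter through *WT* alone, and a gene that passes only where it is high has to differ, so that their levels are given as a description with no p-value. *Hoxc9*, a gene of thoracic identity, had 25, 65 and 48 counts in the *WT* cultures, none in the 3 *KD1* cultures and 0, 1 and 0 in the *KD2* cultures. Every *WT* culture was well above the floor and every culture of the targeted lines was below it, although the *WT* cultures themselves differed (1.28, 2.6 and 2.34 CPM). Taking the floor of 3 counts per culture for *KD1*, the level of *Hoxc9* there was at least 17.8-fold lower. In *KD2*, with 1 count against 138 in *WT*, the ratio of *WT* to *KD2* over the pooled cultures was 159, a value that rests on that 1 count. *Hoxc5*, a central member, was weakly expressed at 14, 13 and 10 counts in *WT*, had none in *KD1* and had 6, 6 and 3 in *KD2*. By the same floor its level was lower by at least 4.93-fold in *KD1*. The ratio of *WT* to *KD2* over the pooled cultures was 2.85, on few counts. The exons of *Hoxc9* overlapped no other gene, and 5.37% of those of *Hoxc5* lay in exons of *Hoxc10*, itself at 0 or 1 count in every culture. *Hoxc6*, between them, had 8 to 12 counts in *WT*, 5 to 10 in *KD1* and 7 to 10 in *KD2*, which overlapped. *Hoxc4* had 2 to 10 counts in *WT*, 0 to 2 in *KD1* and 1 to 4 in *KD2*.

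Of 23 protein-coding genes within 500 kb of cluster c, 14 were tested. In *KD1*, 1 was called lower (*Zfp385a*, log2 fold change -1.16) and none higher, beside 7.49% and 9.34% of all genes. In *KD2* none was called lower and 1 was called higher (*Calcoco1*, 1.42), beside 6.71% and 14.5%. The median log2 fold change of these 14 genes was -0.13 in *KD1* and -0.14 in *KD2*, beside -0.16 and -0.17 over the 586 tested genes of chromosome 15. Markers of fibroblasts moved with *Hoxc9* in *KD1*, where 5 of the 6 tested were called lower, beside 7.49% of all genes. The 10 markers summed to 325 to 369 CPM in *WT*, 14.3 to 17.5 in *KD1* and 197 to 205 in *KD2*. *Dpt* was at 0 in every culture, *Dcn*, *Lum* and *Thy1* were at 0 in every *WT* culture, and *Postn* supplied most of the sum in *WT*. In *KD2*, where *Hoxc9* was also at or near 0, 3 of the 6 were called higher and 1 lower, beside 14.5% and 6.71% of all genes. In bulk RNA, fewer cells of a kind and less RNA per cell cannot be told apart, and the part of these markers in the result was not tested.

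In *KD1* the Hox genes moved in both directions. Among the 19 tested, 1 was called higher (*Hoxb4*) and 4 were called lower (*Hoxa4*, *Hoxa7*, *Hoxc5* and *Hoxc9*) at an adjusted p under 0.05 and a change of more than 2-fold. That is 5.26% and 21.1% of the 19, where 9.34% of all genes tested were called higher and 7.49% lower by the same limits. *Hoxc5* and *Hoxc9* passed the filter through *WT* alone, so that the share lower is not read as a result. By the adjusted p alone, 6 Hox genes rose and 6 fell, where 26.9% of all genes rose and 30.0% fell. *Hoxb4*, a central member known for its part in the renewal of blood stem cells, was at 6.97, 7.04 and 7.67 CPM in *WT* and 16.2, 14.4 and 15.5 CPM in *KD1*. The cultures did not overlap, and the rise was 2.13-fold (log2 fold change 1.09, SE 0.099, adjusted p = 4.4e-07, edgeR). The other 4 genes of cluster b past the test in this direction rose with it by less than the limit: *Hoxb3* (log2 fold change 0.50), *Hoxb5* (0.43), *Hoxb6* (0.76) and *Hoxb8* (0.59). For *Hoxb5* the *KD1* cultures overlapped those of *WT*, with *KD1* replicate 2 at 3.58 CPM and *WT* replicate 1 at 3.59. The 3 *Hoxb6* cultures were at 13.3, 13.2 and 15.2 CPM against 8.81, 7.64 and 8.25 in *WT*, a rise of 1.69-fold (SE of the log2 fold change 0.112, adjusted p = 5.3e-05, edgeR).

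*Hoxb9*, the tested gene nearest the 5′ end of cluster b, went the other way in *KD1*. It was at 57.6, 58.7 and 57.9 CPM against 76.6, 72.8 and 76.3 in *WT*. The cultures did not overlap, and the fall was 1.29-fold (log2 fold change -0.37, SE 0.0547, adjusted p = 4.9e-05, edgeR). *Hoxb2* (log2 fold change 0.32, adjusted p = 0.088) and *Hoxb7* (0.13, adjusted p = 0.35) did not pass the test with edgeR. The median log2 fold change of the 8 tested genes of cluster b was 0.46 in *KD1*, beside 0.15 over the 1235 tested genes of chromosome 11 and -0.03 over all genes tested.

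In cluster a, *Hoxa4*, *Hoxa5* and *Hoxa7* fell in *KD1*. *Hoxa7* had 18, 24 and 17 counts in *WT* and 9, 2 and 4 in *KD1*, or 0.830 to 0.960 CPM against 0.0786 to 0.332. It fell 4.58-fold (log2 fold change -2.20, SE 0.364, adjusted p = 0.00015, edgeR), on counts that are low in every culture. *Hoxa4* was at 4.76, 4.28 and 4.93 CPM in *WT* and 2.14, 2.6 and 2.22 in *KD1*. Its groups were well apart, but its fold change was at the limit (log2 fold change -1.002, SE 0.141, adjusted p = 3.3e-05, edgeR), and it came under the limit without *WT* replicate 1 or 3, without *KD1* replicate 1 or 3 and without any 1 of the *KD2* cultures, the lowest being -0.94, with adjusted p-values below 0.05. *Hoxa5*, which lies next to *Hoxa4* and *Hoxa6* and takes part in the forming of the lung and the mammary epithelium, was at 5.99, 5.60 and 5.71 CPM in *WT* and 3.58, 3.85 and 4.88 in *KD1*. It fell by less than the limit (log2 fold change -0.49, SE 0.125, adjusted p = 0.0041, edgeR). *Hoxa2*, *Hoxa3*, *Hoxa6*, *Hoxa9* and *Hoxa10* had log2 fold changes of -0.52 to 0.25 and did not pass the test.

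**Figure D2:**
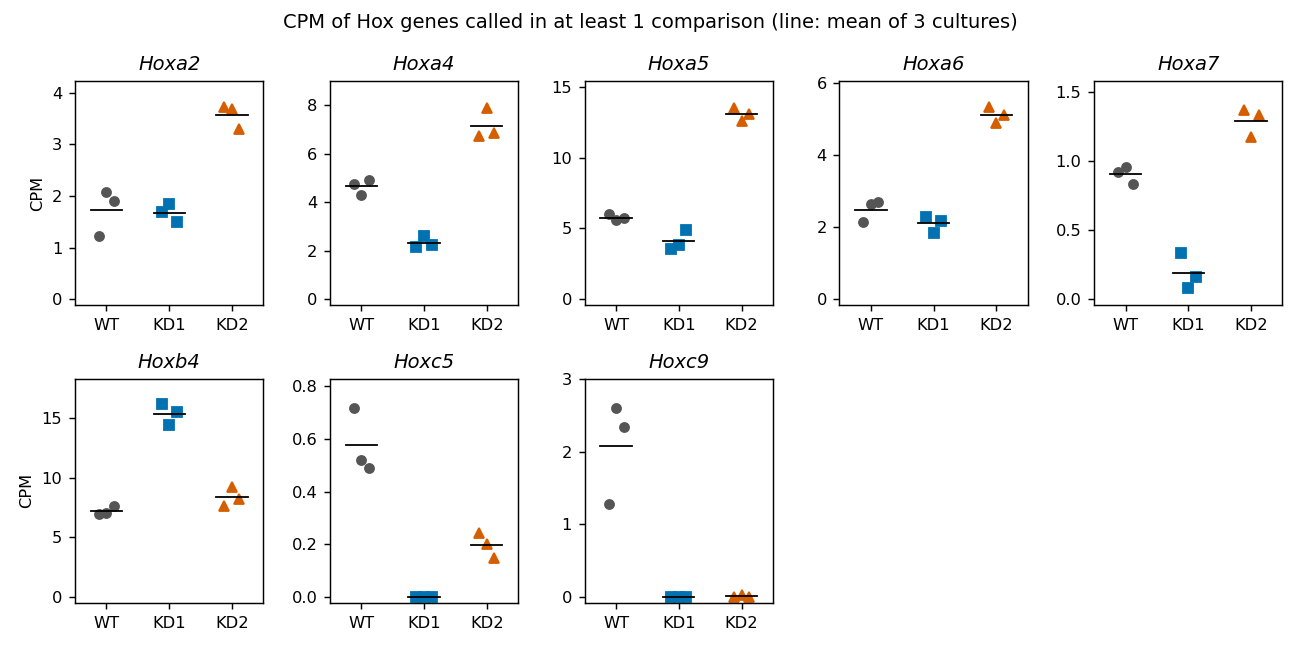
CPM of Hox genes that were called in at least 1 of the 3 comparisons, in each of 3 cultures of *WT*, *KD1* and *KD2*, with a line at the mean. *Hoxb4* is high in *KD1*, *Hoxa2*, *Hoxa5* and *Hoxa6* are high in *KD2*, and *Hoxc9* and *Hoxc5* are at their highest in *WT*.

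In *KD2* the 3′ part of cluster a rose. Of the 19 tested members, 4 were called higher (*Hoxa2*, *Hoxa5* and *Hoxa6* among them) and 2 lower (*Hoxc5* and *Hoxc9*), or 21.1% and 10.5%, where 14.5% of all genes were called higher and 6.71% lower. Both genes called lower passed the filter through *WT* alone, so that this share is not read as a result either. By the adjusted p alone 9 rose and 2 fell, which is 47.4% and 10.5%, beside 34.0% and 33.3% of all genes. *Hoxa5* was at 13.5, 12.6 and 13.1 CPM against 5.60 to 5.99 in *WT* and rose 2.27-fold (log2 fold change 1.18, SE 0.112, adjusted p = 5.2e-07, edgeR).

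*Hoxa2*, a gene of hindbrain and branchial arch patterning, had the widest spread of these in *WT*, at 1.23, 2.08 and 1.90 CPM, against 3.72, 3.69 and 3.30 in *KD2*. It rose 2.03-fold (log2 fold change 1.02, SE 0.185, adjusted p = 0.00023, edgeR). *Hoxa6* was at 2.15, 2.64 and 2.69 CPM in *WT* and 5.34, 4.89 and 5.12 in *KD2*, and rose 2.04-fold (log2 fold change 1.03, SE 0.142, adjusted p = 2e-05, edgeR). For both, the rise passed the test without any 1 culture but sat near the 2-fold limit. Without *WT* replicate 1 the log2 fold change was 0.84 for *Hoxa2* and 0.93 for *Hoxa6*, and without *KD2* replicate 1 it was just under 1 for both, so that the count of members called higher was 2 in place of 4. With every gene of at least 1 count kept in the fit, both were again under the limit (0.994 for *Hoxa2* and 0.997 for *Hoxa6*). *Hoxa3* (log2 fold change 0.94, SE 0.118, adjusted p = 8.6e-06, edgeR) and *Hoxa4* (0.63, SE 0.124, adjusted p = 5e-04, edgeR) rose by less than the limit.

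Cell type markers moved in *KD2* as well. The 10 epithelial markers summed to 5090 to 5680 CPM in *WT*, 6490 to 6650 in *KD1* and 3060 to 3760 in *KD2*. None of the 9 tested was called in *KD2*, beside 14.5% of all genes called higher and 6.71% lower. By the adjusted p alone, 1 of them rose and 5 fell in *KD2*, beside 34.0% and 33.3% of all genes. The basal keratin genes *Krt5* and *Krt14* fell there by 0.96 and 0.90 on the log2 scale, while *Krt8* rose by 0.76. *Pdgfrb*, a receptor of fibroblasts and pericytes, was at 0.563, 0.880 and 1.03 CPM in *WT*, 0.148, 0.197 and 0.0807 in *KD1* and 63.5, 64.2 and 72.6 in *KD2*. Of the 6 fibroblast markers tested, 3 were called higher in *KD2*, *Pdgfrb* among them, and 1 was called lower (*Postn*, log2 fold change -1.62). The shares of all genes were 14.5% and 6.71%. *Krt19* and *Dpt* were at 0 in every culture, and the part of these markers in the rise of cluster a was not tested.

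Toward the 5′ end of cluster a the difference faded. *Hoxa7* was at 1.37, 1.17 and 1.33 CPM in *KD2* against 0.922, 0.960 and 0.830 in *WT*, which did not pass the test (log2 fold change 0.50, SE 0.256, adjusted p = 0.10, edgeR) although the cultures did not overlap. *Hoxa9* (log2 fold change -0.13, adjusted p = 0.76) and *Hoxa10* (0.17, adjusted p = 0.33) overlapped *WT* and did not pass with edgeR. Over the 9 tested genes of cluster a the median log2 fold change was 0.94 in *KD2* and -0.25 in *KD1*, beside 0.23 and 0.03 over the 795 tested genes of chromosome 6.

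**Figure D3:**
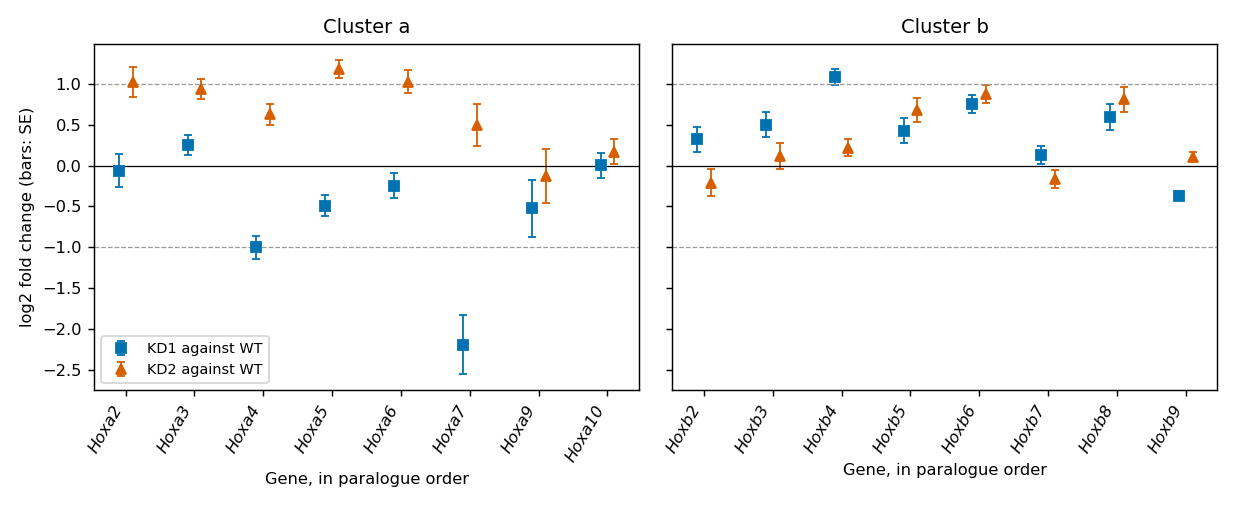
Log2 fold change against *WT*, with its SE, of tested members of cluster a (left) and cluster b (right) in paralogue order, for *KD1* (squares) and *KD2* (triangles). Dashed lines mark a 2-fold change. *Hoxa2* to *Hoxa6* lie above 0 in *KD2*, *Hoxa7* is lowest in *KD1*, and *Hoxb4* is the highest of cluster b in *KD1*.

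The rise in *KD2* was not confined to the Hox genes of that region. *Skap2*, which encodes an adaptor of Src kinase signalling and is the nearest tested protein-coding gene outside the cluster at its 3′ end, was at 59.4, 64.8 and 63.8 CPM in *WT*, 63.2, 66.2 and 66.6 in *KD1* and 173, 179 and 163 in *KD2*. Its rise in *KD2* was 2.74-fold (log2 fold change 1.45, SE 0.0611, adjusted p = 1.9e-10, edgeR). The genes within the cluster that are read from the other strand rose too: *Hoxaas3* (log2 fold change 1.33, adjusted p = 1.3e-05), *5730596B20Rik* (1.08, adjusted p = 0.0032) and, below the limit, *Hotairm1* (0.48, adjusted p = 0.00084, all edgeR). *Hoxaas2* did not pass (0.61, adjusted p = 0.05, edgeR). On the far side *Evx1* was not tested and *Hibadh* rose by 0.22 on the log2 scale, close to the chromosome 6 median. The files do not state whether counting used strand, and 15.0% of the exon bases of *Hoxa2* overlap *Gm28308*, 27.1% of those of *Hoxa3*, 16.0% of those of *Hoxa4* and 20.4% of those of *Hoxa7* overlap other annotated genes. *Hoxa5* and *Hoxa6* overlap no other annotated gene.

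**Figure D4:**
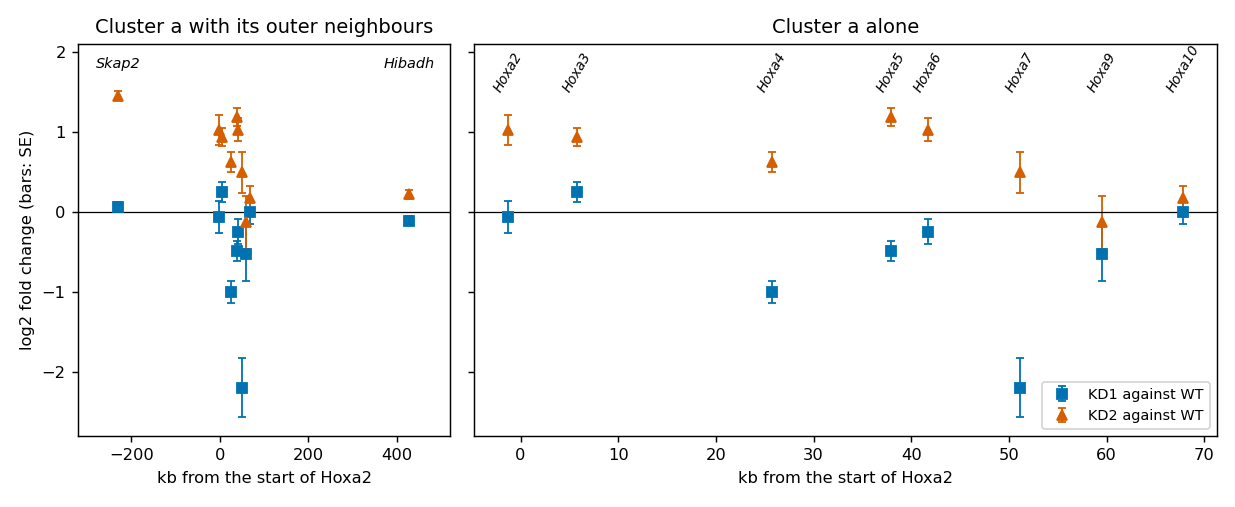
Log2 fold change against *WT*, with its SE, by distance in kb from the start of *Hoxa2*, for *KD1* (squares) and *KD2* (triangles). The left panel adds the nearest tested protein-coding genes on either side (*Skap2* and *Hibadh*, at the middle of the gene) and the right panel shows cluster a alone, each gene at its homeobox. In *KD2* the values run from 1.45 at *Skap2* and 1.02 at *Hoxa2* to -0.13 at *Hoxa9* and 0.17 at *Hoxa10*.

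The promoters of *Hoxa2*, *Hoxa5* and *Hoxa6* are shown because these genes rose together in *KD2* and Hox promoters are known as CpG-rich targets of Polycomb and MLL complexes. Each runs from 250 bases before to 50 after the start in RefSeq on GRCm38.p6, on the minus strand, written 5′ to 3′ with every CG dinucleotide in capitals. *Hoxa2* is at chr6:52164782-52165081, *Hoxa5* at chr6:52204538-52204837 and *Hoxa6* at chr6:52208623-52208922.
Hoxa2: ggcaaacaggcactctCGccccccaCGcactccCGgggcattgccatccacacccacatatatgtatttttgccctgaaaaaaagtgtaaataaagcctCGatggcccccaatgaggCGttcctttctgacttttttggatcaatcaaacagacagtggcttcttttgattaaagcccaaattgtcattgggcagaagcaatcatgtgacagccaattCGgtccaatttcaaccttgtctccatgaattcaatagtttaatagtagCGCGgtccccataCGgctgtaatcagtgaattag
Hoxa5: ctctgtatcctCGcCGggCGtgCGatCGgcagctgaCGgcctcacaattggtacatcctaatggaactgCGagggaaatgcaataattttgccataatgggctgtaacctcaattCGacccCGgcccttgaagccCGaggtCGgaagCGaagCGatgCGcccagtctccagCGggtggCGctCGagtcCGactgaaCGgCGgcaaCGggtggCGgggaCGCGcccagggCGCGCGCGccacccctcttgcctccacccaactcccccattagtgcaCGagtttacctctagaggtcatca
Hoxa6: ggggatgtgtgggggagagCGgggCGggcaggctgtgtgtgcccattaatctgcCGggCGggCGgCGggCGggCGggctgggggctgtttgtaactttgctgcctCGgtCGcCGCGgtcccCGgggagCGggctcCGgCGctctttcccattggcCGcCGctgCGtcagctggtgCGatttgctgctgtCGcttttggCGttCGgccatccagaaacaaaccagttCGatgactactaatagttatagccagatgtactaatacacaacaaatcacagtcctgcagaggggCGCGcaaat
The window of *Hoxa2* held 9 CG dinucleotides, that of *Hoxa5* 29 and that of *Hoxa6* 26. Over 32851 promoter windows of the same length, 94.6% held at least 1, the median was 7, 45.8% held 9 or more and 16.9% held 26 or more. The windows found for 22 Hox genes ran from 4 to 45. Genes that rose in *KD2* thus had promoters at very different CpG counts.

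Cluster b in *KD2* had no member called in either direction, beside 14.5% of all genes called higher and 6.71% lower. *Hoxb6* was at 13.9, 13.9 and 17.5 CPM against 7.64 to 8.81 in *WT* and rose 1.83-fold (log2 fold change 0.87, SE 0.112, adjusted p = 1e-05, edgeR). *Hoxb5* (log2 fold change 0.68, adjusted p = 0.00091) and *Hoxb8* (0.81, adjusted p = 0.00036) also rose below the limit. *Hoxb4*, at 7.64, 9.25 and 8.21 CPM, overlapped *WT* (log2 fold change 0.22, adjusted p = 0.080, edgeR), and *Hoxb9* had 79.4, 83.4 and 80.2 CPM (0.11, adjusted p = 0.094, edgeR). *Hoxb2*, *Hoxb3* and *Hoxb7* had log2 fold changes of -0.21 to 0.12 and overlapped *WT*. *Hoxb5*, *Hoxb6* and *Hoxb8* were thus higher than in *WT* in both lines by the test, although the *KD1* cultures of *Hoxb5* overlapped those of *WT*. The 2 comparisons share the *WT* cultures. Of 17 protein-coding genes within 500 kb of cluster b, 13 were tested. In *KD1*, 3 were called lower (*Abi3*, log2 fold change -1.93, *B4galnt2*, -1.13, and *Igf2bp1*, -2.15) and none higher, beside 7.49% and 9.34% of all genes. In *KD2*, 3 were called higher (*Ttll6*, 3.31, *Igf2bp1*, 3.18, and *Copz2*, 2.35) and none lower, beside 14.5% and 6.71%. *Ttll6* and *Igf2bp1* passed the filter through *KD2* alone, so that the share higher there is not read as a result. Exon overlap with *Hoxb3os* covers 27.3% of *Hoxb2* and 52.9% of *Hoxb3*, while *Hoxb4*, *Hoxb6*, *Hoxb7*, *Hoxb8* and *Hoxb9* overlap no annotated gene.

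The members below the filter gave 1 pattern between lines. *Hoxd4* had 3, 5 and 2 counts in the *KD2* cultures and none in the 6 others, and *Hoxd3* had 1 count in *KD2* replicate 1. Only 1 of the *KD2* cultures was above the floor, and 52.3% of the exon bases of *Hoxd4* are shared with other annotated genes. *Hoxb13*, expressed in the hindmost part of the body, had 8, 6 and 9 counts in *WT*, 3, 2 and 3 in *KD1* and 5, 4 and 3 in *KD2*. With every gene of at least 1 count kept in the fit, *Hoxb13* (adjusted p = 0.014) and *Hoxc4* (adjusted p = 0.0078, both edgeR) were called lower in *KD1*. *Hoxd4* entered that fit through *KD2* alone, so that its call higher there is not read as a result. These calls rest on few counts.

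Direct comparison of the 2 targeted lines, which uses no *WT* culture in the contrast, gave 6 Hox genes called higher in *KD2* than in *KD1* (*Hoxa2*, *Hoxa4*, *Hoxa5*, *Hoxa6*, *Hoxa7* and *Hoxc5*) and none lower. None was called lower with DESeq2 either. Of all genes, 14.7% were called higher and 8.58% lower, beside 31.6% of the 19 members called higher. By the adjusted p alone, 9 members were higher and 4 lower (*Hoxb2*, *Hoxb3*, *Hoxb4* and *Hoxb7*), beside 34.8% and 33.0% of all genes. The difference reached 2.69 on the log2 scale for *Hoxa7* (SE 0.334, adjusted p = 6.7e-06) and 1.68 for *Hoxa5* (SE 0.114, adjusted p = 1.4e-08, edgeR). All cultures of *KD2* were above all cultures of *KD1* for *Hoxa2* to *Hoxa7*. The share of all genes that stood apart in this way was not computed, and 67.8% of all genes passed the adjusted p here. The separation is therefore not read as a result about the members. *Hoxb4* was lower in *KD2* than in *KD1* by less than the limit (log2 fold change -0.87, SE 0.0957, adjusted p = 2e-06, edgeR), and *Hoxb9* was higher (0.48, SE 0.0544, adjusted p = 2.7e-06, edgeR).

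Among the cofactors of Hox proteins, 8 of the 9 TALE genes were tested, and 2 were called higher in each line and none lower. Of all genes, 9.34% (*KD1*) and 14.5% (*KD2*) were called higher and 7.49% (*KD1*) and 6.71% (*KD2*) lower. *Meis1* was at 12.6, 13.7 and 13.3 CPM in *WT*, 82.6, 81.1 and 81.3 in *KD1* and 13, 13.7 and 13.3 in *KD2*. The *KD1* cultures stood far above the other 6, a rise of 6.18-fold (log2 fold change 2.63, SE 0.0636, adjusted p = 4.1e-13, edgeR). *KD1* was thus the line in which both *Hoxb4* and *Meis1* rose past the limit. *Meis3* had 6 to 11 counts per culture in *WT*, 5 or 6 in *KD1* and 40 to 46 in *KD2*, and passed the filter through *KD2* alone, so that its call there is not read as a result. *Pbx4* was called higher in both lines, by 1.85 and 3.70 on the log2 scale, from 0 to 8 counts per culture in *WT*.

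Of the activator and Polycomb lists, whose products keep Hox genes on or off, 3 genes were called, all in *KD2* and all of the Polycomb list. Of all genes, 9.34% were called higher and 7.49% lower in *KD1*, and 14.5% and 6.71% in *KD2*. None of the 12 genes of the list of MLL and demethylase activators was called in either line, with log2 fold changes from -0.49 to 0.35. By the adjusted p alone, 1 rose and 5 fell in *KD1* and 2 rose and 5 fell in *KD2*, where 26.9% of all genes rose and 30.0% fell in *KD1* and 34.0% rose and 33.3% fell in *KD2*. All 32 Polycomb genes were tested. None was called in *KD1*, beside 9.34% and 7.49% of all genes. By the adjusted p alone, 5 rose and 11 fell there. In *KD2*, 1 was called higher and 2 lower, beside 14.5% and 6.71% of all genes, and 6 rose and 11 fell by the adjusted p alone. There *Phf1*, a PRC2 partner, was called higher (log2 fold change 1.49, adjusted p = 2.9e-08) and *Kdm2b*, which brings PRC1 to CpG-rich DNA, was called lower (-1.03, adjusted p = 8.9e-09, edgeR). *Epop*, a PRC2 partner, was nearly lost in *KD2*. It had 56, 84 and 66 counts in *WT*, 123, 137 and 110 in *KD1* and 1, 3 and 2 in *KD2*, all of the last at or under the floor (adjusted p = 3e-09, edgeR). Core subunits moved by less than 2-fold. *Suz12* fell in *KD2* (log2 fold change -0.48, adjusted p = 0.00034) and was at -0.033 in *KD1* (adjusted p = 0.78). Its *KD2* cultures were at 304, 310 and 229 CPM, lowest in replicate 3, against 407, 381 and 390 in *WT*. *Bmi1* fell in *KD1* (-0.86, adjusted p = 1.6e-06) and was at 0.03 in *KD2* (adjusted p = 0.76, all edgeR), and for *Ezh2* the log2 fold changes were 0.13 (*KD1*) and 0.17 (*KD2*).

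Of the 10 tested genes of the retinoid axis, which includes binding proteins, enzymes and receptors, 3 were called higher and 2 lower in *KD1*, beside 9.34% and 7.49% of all genes. In *KD2*, 1 was called higher and 1 lower, beside 14.5% and 6.71%. The difference between the lines in these counts was not tested. *Crabp2*, which carries retinoic acid to its receptors, was called higher in both (log2 fold change 2.03 and 1.13). *Aldh1a3*, which makes retinoic acid, was called higher in *KD1* (1.81) but passed the filter through *KD1* alone. In *KD1* *Cyp26b1*, which degrades retinoic acid, fell (-1.42) and so did the receptor gene *Rarg* (-1.08). Among upstream factors of the clusters, *Cdx1* and *Cdx2* had no count. Of 5 tested, 1 was called higher (*Gdf11*, log2 fold change 1.31) and 1 lower (*Egr2*, -2.57) in *KD1*, beside 9.34% and 7.49% of all genes. By the adjusted p alone 1 rose and 4 fell there, beside 26.9% and 30.0%. In *KD2* none was called higher and 1 was called lower, beside 14.5% and 6.71%. By the adjusted p alone 1 rose and 3 fell in *KD2*, beside 34.0% and 33.3%. Of 16 noncoding RNAs of the clusters, *Hotair*, *Hottip* and *Haglr* were among 8 with no count, and 6 were tested. *Hoxaas3* and *Hoxb5os* (log2 fold change 1.13) were called higher in *KD2* and none lower, beside 14.5% and 6.71% of all genes. In *KD1* none was called, beside 9.34% higher and 7.49% lower.

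**Figure D5:**
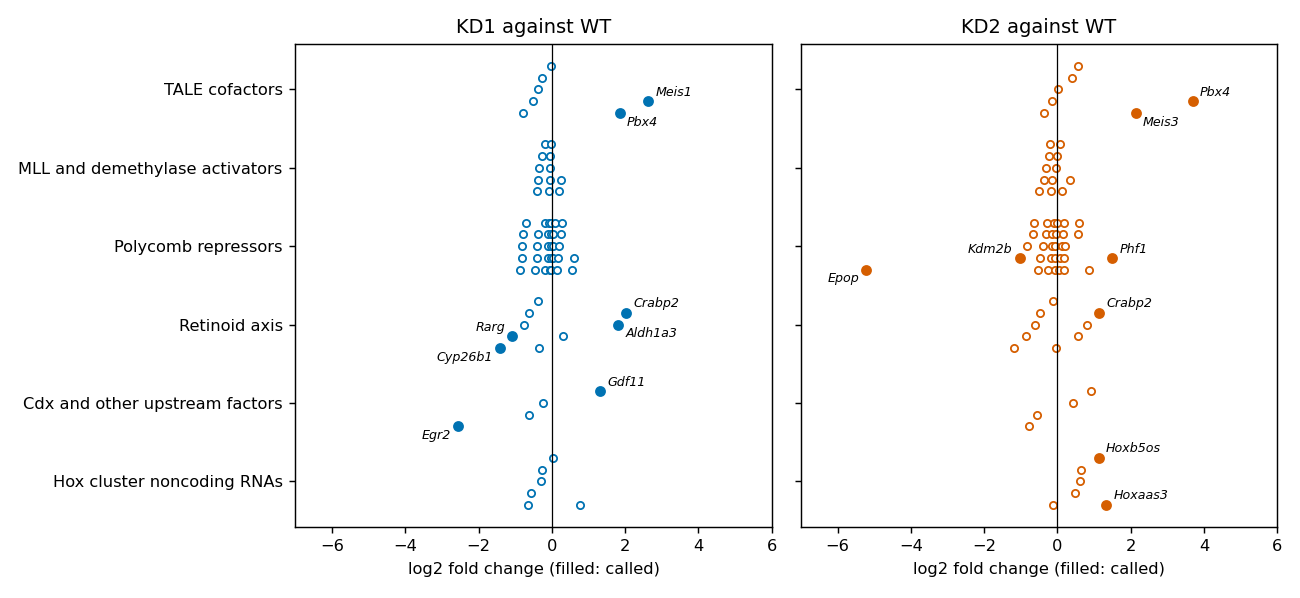
Log2 fold change against *WT* of tested genes of 6 lists of Hox cofactors and regulators, for *KD1* (left) and *KD2* (right). Filled points are genes called at an adjusted p under 0.05 and more than 2-fold, with their names. The activator list has no filled point in either line, and *Epop* lies farthest below 0 in *KD2*.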

How the data were processed

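RNA-seq counts of 9 HC11 cultures were used, with each culture's line and replicate number taken from the labels. The authors deposited whole-number counts per gene, after filtering reads with fastp, mapping to GRCm38 with HISAT2 and counting exons with featureCounts, and tested them with DESeq2. Strandedness and the handling of reads that map to several places are not given in the sources used here. The labels say that lysates were flash frozen and the methods say that they were not. The members and the lists of cofactors, regulators and cell type markers were chosen with earlier results of these data known, and no p-value was adjusted over them alone.

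Counts were tested with edgeR 4.0.16 in R 4.3.3 (quasi-likelihood, TMM scaling, filterByExpr, all 9 cultures in 1 fit, Benjamini-Hochberg over 15253 genes). Calls needed an adjusted p under 0.05 together with a log2 fold change beyond 1 in size, while rose and fell were used at the adjusted p alone. Depth was 19231428 to 28360592 counts per culture. Standard errors were derived from the F statistic. The code was tested on simulated counts. All 39 members matched GENCODE vM21, a release other than the authors', which gave positions, lengths, overlaps and shared windows of 50 bases. Promoters came from RefSeq.

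Full values are given for members called in any comparison and the 5 of highest mean RPKM, and up to 4 genes are named per list among those called, with a few others, chosen after their values were seen, named beside them (*Hotairm1*, *Hoxaas2*, *Hibadh*, *Suz12*, *Ezh2*, *Bmi1* and markers). Some items are not reported here, though counts and sums include them. Same-numbered cultures did not deviate together (mean correlation 0.0012, from -0.0652 to 0.0789). Alternatives were median-of-ratios factors, library size alone, DESeq2 1.42.0, other filters, 6 cultures, no fold limit, the replicate block and each culture left out.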

Additional observations from a re-analysis of the deposited data

Results flagged for a closer look

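*KD1* and *KD2* differed from each other in 6 Hox genes, by the test of *KD2* against *KD1* in edgeR. On the log2 scale the value in *KD2* exceeded that in *KD1* by 1.09 for *Hoxa2*, 1.63 for *Hoxa4*, 1.68 for *Hoxa5*, 1.28 for *Hoxa6* and 2.69 for *Hoxa7*. For *Hoxc5* the fitted difference was 5.31, which depends on the prior count because *KD1* had no count. With 3 cultures per group, no search for single outlying cultures was made gene by gene. Over all genes, *WT* replicate 1 and *KD2* replicate 3 stood apart from their lines, as given above.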

How the results depend on the processing

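With at least 10 counts required in every culture, *Hoxc5*, *Hoxc9*, *Hoxa7* and *Hoxa9* were not tested and *Hoxa4* was at -0.97, so that 0 members were called lower in *KD1* (in place of 4) and 0 in *KD2* (in place of 2), and 5, 5 and 9 cofactor and regulator genes were called in *KD1*, in *KD2* and between the lines (in place of 9, 10 and 15). The 6 lists held 8, 12, 32, 10, 5 and 6 tested genes. At the main settings the shares of all genes called higher and lower were 9.34% and 7.49%, 14.5% and 6.71%, and 14.7% and 8.58%. With no limit on the fold change, 6 members were called higher in *KD1*, 9 higher in *KD2* and 4 lower between the lines, beside 26.9%, 34.0% and 33.0% of all genes. The cofactor and regulator genes called were then 45, 45 and 56, beside 56.9%, 67.2% and 67.8% of all genes. With 1 culture left out, 2 to 5 members were called higher in *KD2*, at 2 without *WT* replicate 1 or *KD2* replicate 1. With at least 1 count in any culture, *Hoxa2* (0.994) and *Hoxa6* (0.997) in *KD2* were under the fold limit. There 3 members were called higher, among them *Hoxd4*, which passed this filter through *KD2* alone. *Hoxa4* in *KD1* was under the fold limit with median-of-ratios factors and with DESeq2 (-0.98 each), with other filters and with 6 cultures. Values near 0 changed sign: *Vangl2* in *KD2* was between -0.038 (without *WT* replicate 1) and 0.13 (without *WT* replicate 3), and *Hoxa2* in *KD1* was between -0.25 (without *WT* replicate 1) and 0.12 (without *WT* replicate 2), and was at 0.01 without *WT* replicate 3 and 0.02 without *KD1* replicate 3. Under the replicate block, 1 member was called higher and 4 lower in *KD1*, 4 higher and 2 lower in *KD2*, and, in *KD2* against *KD1*, 6 higher and 0 lower, the same counts as without it. The cause of these changes was not tested, apart from the filter. At this depth, members under 3 counts in every culture cannot be told from silent ones.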
